A study of Mus musculus with 15 samples.

Results

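The genes described here cut, protect or crosslink the extracellular matrix, and their transcripts were compared between kidneys with and without a Cre-driven deletion of the nuclear receptor ERRγ. They were chosen by symbol: matrix metalloproteinases (Mmp followed by a number), the ADAMTS and ADAMTS-like genes, the tissue inhibitors of metalloproteinases (Timp followed by a number) and the lysyl oxidases Lox and Loxl1 to Loxl4. This took 56 of the 23420 genes in each deposited table, 23 of them Mmp, 24 Adamts or Adamtsl, 4 Timp and 5 Lox genes. The rule uses symbols and no measured value, though it was set with earlier results of these data known.

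Whole kidneys of C57BL/6 mice gave polyadenylated RNA for 15 libraries. The knockout animals were ERRg fl/fl;Sim1-Cre, and their Cre-negative littermates, ERRg fl/fl, were the controls, so that floxed alleles were common to all groups. Sim1-Cre deletes only in the cells in which that driver is active, and other kidney cells keep the receptor. At 3 weeks of age there were 3 knockout and 2 control males and 2 knockout and 2 control females, and at 3 months 3 knockout and 3 control males. For the 3-month knockouts one label says female, against male in the title and in the sex field. Each of the 3 deposited tables compares the genotypes within 1 sex and age as log2 fold change, standard error (SE) and adjusted p, beside a mean normalized count over both genotypes. Which labelled libraries entered each comparison is not stated, and with no values per library used, the error given is the authors' SE.

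Matrix metalloproteinases and ADAMTS enzymes are zinc-dependent proteases that are made as inactive precursors, and TIMP proteins block them by binding the active site. Together they set how fast collagen, proteoglycans and basement membrane are turned over. Lysyl oxidases act in the opposite sense, since they link collagen and elastin chains and make the matrix harder to degrade. In the kidney several of these genes are known from injured tubules, from fibroblasts and from macrophages in fibrosis.

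No header says which genotype is the numerator, and a positive value is read here as higher in knockout. This rests on the series title, which ties ERRγ to mitochondrial genes, and on the Nduf genes, subunits of mitochondrial complex I. In the authors' deposited table of 3-week males 28 of 35 tested Nduf genes were lower and 0 higher, in that of females 32 of 36 and 0, and in that of 3-month males 30 of 35 and 0, and at an unadjusted p under 0.05 also 0 were higher by the authors' DESeq2 test. Esrrg, the targeted gene, was higher on that reading at 3 weeks, with 0.82 ± 0.20 for males (adjusted p = 0.000613) and 1.04 ± 0.17 for females (adjusted p = 1.7e-08) in the authors' deposited tables, a sign that goes against that reading. At 3 months the authors' deposited table gave Esrrg -0.87 ± 0.57 and no p. A count over the whole gene can include exons outside the deleted part, so Esrrg does not check the deletion. Why Esrrg was higher at 3 weeks was not tested. The direction used here rests on the title and the Nduf genes alone, with Esrrg against it at 3 weeks. Under the opposite reading each higher gene below would be a lower one.

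A run of 10 Mmp genes lies on mouse chromosome 9 (GRCm38, GENCODE M21) at chr9:7272514-7699585, a span of 427 kb with 0 other protein-coding genes between them. It holds the genes of the secreted collagenase group, Mmp13, Mmp8, Mmp1a and Mmp1b, of which Mmp1a is annotated as a polymorphic pseudogene. Also in the run are the stromelysins Mmp3 and Mmp10, the metalloelastase Mmp12, the matrilysin Mmp7, and Mmp20 and Mmp27. The promoter windows of 4 genes of the run that passed the low-count filter are printed because these neighbours differed in their changes, described below. Each window runs from 250 bases before to 50 bases after a RefSeq start (GRCm38.p6, plus strand), 5′ to 3′. Capitals mark an AP-1 element, TGANTCA with N for any base, or a TATA box, TATAAA. Mmp13 stands at chr9:7272264-7272563, Mmp12 at chr9:7347124-7347423, Mmp3 at chr9:7445572-7445871 and Mmp7 at chr9:7691840-7692139. Mmp12 and Mmp7 each have another window, at chr9:7344147-7344446 and chr9:7692091-7692390, which holds neither element and is not printed. The GENCODE start of Mmp12, 7344381, lies in its unprinted window.
Mmp13: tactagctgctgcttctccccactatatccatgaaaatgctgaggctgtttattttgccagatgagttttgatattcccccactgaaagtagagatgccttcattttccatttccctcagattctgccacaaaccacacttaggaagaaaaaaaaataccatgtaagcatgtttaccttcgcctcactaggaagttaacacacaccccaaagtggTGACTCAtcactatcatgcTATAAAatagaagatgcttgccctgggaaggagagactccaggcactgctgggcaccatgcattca
Mmp12: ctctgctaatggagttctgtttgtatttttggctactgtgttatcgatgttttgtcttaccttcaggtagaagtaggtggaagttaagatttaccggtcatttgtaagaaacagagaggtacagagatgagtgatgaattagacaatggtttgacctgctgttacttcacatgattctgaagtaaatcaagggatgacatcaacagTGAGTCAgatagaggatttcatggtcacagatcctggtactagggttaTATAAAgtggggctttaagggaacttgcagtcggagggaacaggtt
Mmp3: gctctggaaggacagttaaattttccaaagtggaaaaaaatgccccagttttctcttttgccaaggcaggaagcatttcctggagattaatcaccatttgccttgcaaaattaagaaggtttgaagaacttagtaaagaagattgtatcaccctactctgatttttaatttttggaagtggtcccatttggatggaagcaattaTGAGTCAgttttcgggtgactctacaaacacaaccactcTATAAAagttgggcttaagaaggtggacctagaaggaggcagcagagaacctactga
Mmp7: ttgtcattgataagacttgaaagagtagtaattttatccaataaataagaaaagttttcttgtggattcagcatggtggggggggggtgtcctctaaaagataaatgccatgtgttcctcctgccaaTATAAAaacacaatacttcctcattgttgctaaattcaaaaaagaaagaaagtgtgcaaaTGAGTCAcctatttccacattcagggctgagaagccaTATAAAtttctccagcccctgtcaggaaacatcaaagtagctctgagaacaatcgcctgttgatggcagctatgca

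The AP-1 match begins at position -35 from the start in Mmp13, -44 in Mmp12, -46 in Mmp3 and -63 in Mmp7. Both strands of the 40 promoter windows in the table for 37 of the 56 genes were searched, and 8 windows, or 20%, held the AP-1 element, against 7.81% of all 32851 windows. All 8 lay in the chromosome 9 run, in Mmp13, Mmp12, Mmp1b, Mmp3, Mmp1a, Mmp10, Mmp20 and Mmp7. TATAAA was found in 12 of the 40 windows, or 30.0%, against 13.6% of all windows. The ERR response element, searched as TNAAGGTCA, was found in 0 of the 40, against 1.28% of all windows. A match is a description of letters and is neither a bound site nor a cause, and the absence of a match says nothing about the receptor. Windows of neighbours in a gene family share ancestry and are not independent.

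Members outside the authors' filters have no p in these tables. Genes of the status Low had a mean normalized count under 10, and genes of the status Outlier had a fold change without a p, by a rule not given in the sources used here. Of the 56 genes, 40 had an adjusted p in 3-week males, 42 in 3-week females and 32 in 3-month males. In the same order 9, 8 and 15 were Low and 7, 6 and 9 were Outlier. Genes tested in none of the tables numbered 8, all of them at low counts: Mmp1a, Mmp1b, Mmp8, Mmp10, Mmp20, Mmp21, Mmp27 and Adamts19. Mmp1a and Mmp1b were listed at 0 in all 3 authors' deposited tables. A gene is called higher or lower below when the authors' deposited adjusted p, over all genes of its table, was under 0.05.

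At 3 weeks protease and inhibitor genes were called mostly higher in knockout. In the authors' deposited table of 3-week males 14 of the 40 tested genes were higher (35%) and 1 was lower, where 8.81% of all 14678 tested genes were higher and 8.52% lower, 17.3% in all. In that of 3-week females 11 of 42 were higher (26.2%) and 4 lower, where 8.3% of all 14167 tested genes were higher and 10.5% lower, 18.8% in all. In the authors' deposited table of 3-month males 24 of 32 were higher (75.0%) and 2 lower, where 29.8% of all 12848 tested genes were higher and 27.8% lower, 57.5% in all. The median log2 fold change of the tested members was 0.47, 0.31 and 1.73 in the 3 authors' deposited tables in the same order, against -0.005, 0.009 and 0.011 for all tested genes. Genes that are high in 1 genotype pass the filter more easily, so these are counts of the tested genes and not of all 56.

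**Figure D1:**
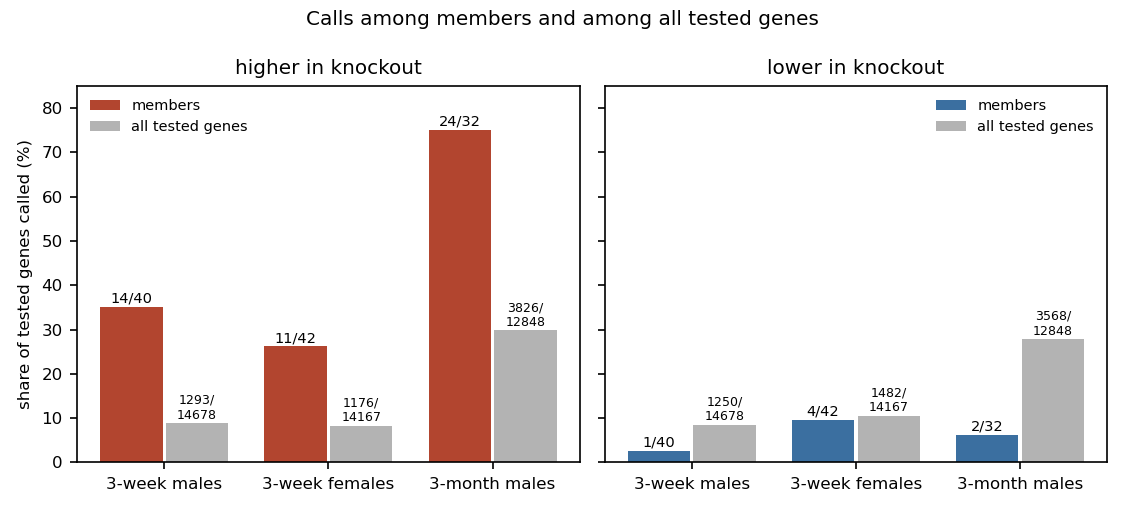
Share of tested genes called higher (left) or lower (right) in knockout, in percent, for the matrix protease, inhibitor and crosslinker genes (coloured bars) and for all tested genes of the same table (grey bars), with counts above the bars. The coloured bar is above the grey one for higher calls in all 3 comparisons, 35% against 8.81%, 26.2% against 8.3% and 75.0% against 29.8%, and below it for lower calls.

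Scaling to total counts, in place of size factors, moves every log2 fold change by 0.18 in 3-week males, 0.15 in 3-week females and 0.58 in 3-month males. The share of calls that are higher among all genes is then 75.2%, 73.9% and 86.9%, against 50.8%, 44.2% and 51.7% with the authors' size factors. Members called higher and lower are then 18 and 0, 15 and 1, and 26 and 2 in the same order, where 14.5%, 17.2% and 59.9% of all tested genes are called higher.

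Fold changes at 3 months moved with abundance, and most members are of low abundance. Among all tested genes of the authors' deposited table of 3-month males, split into 5 bins of equal size by mean count, the lowest bin had a median log2 fold change of 0.84 with 48.1% called higher, and the highest had -0.38 with 14.2%. Of the 32 tested members 12 lay in the lowest bin, of which 9 were called higher, and 9 lay in the next, of which 8 were called higher where 39.5% of all genes were. These 5 bins were chosen after the values had been seen. With fold changes centred on the median of genes of like abundance, an alternative that uses 20 bins, 18 of 32 members (56.2%) were higher and 6 lower at 3 months, where 28.1% of all tested genes were higher. At 3 weeks that centring gave 14 higher and 1 lower in males, where 7.74% of all genes were higher, and 11 and 4 in females, where 8.07% were. At 3 weeks the trend was smaller, with medians of 0.22 in the lowest and -0.09 in the highest bin of the authors' deposited table of males.

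The inhibitors differed among themselves. Timp1, a secreted inhibitor that rises in many injured tissues, was higher in knockout kidneys at 3 weeks, by 3.19 ± 0.29 in males (9.13-fold, adjusted p = 6.29e-25) and by 2.82 ± 0.30 in females (7.05-fold, adjusted p = 3.57e-19) on the log2 scale in the authors' deposited table of each. At 3 months the authors' deposited table gave Timp1 5.32 ± 0.58, with the status Outlier and no p. Timp2, which also helps activate Mmp2, was higher in 3-week males by 0.81 ± 0.16 (adjusted p = 1.46e-05) and in 3-month males by 2.96 ± 0.24 (adjusted p = 1.93e-34) in the authors' deposited tables. In females the value of Timp2 in the authors' deposited table was 0.34 ± 0.26, with an adjusted p of 0.394. Timp3, which binds to the matrix, was the most abundant gene of the 56, and in the authors' deposited table of 3-month males it was lower in knockout, at -1.69 ± 0.18 (0.309-fold, adjusted p = 1.33e-19). Its values at 3 weeks, -0.25 ± 0.14 in males and -0.23 ± 0.18 in females in the authors' deposited tables, were not called. Timp4, which was tested only at 3 months, was higher there by 2.70 ± 0.62 (adjusted p = 5.01e-05) in the authors' deposited table, at a mean normalized count of 17.8.

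Of these genes 3 lie within synapsin genes on the opposite strand, Timp1 in Syn1, Timp3 in Syn3, with 1733 shared exon bases, and Timp4 in Syn2, with 90. Whether counting used strand is not stated, so reads of such pairs cannot be told apart here. In all, 12 members share exon bases with another protein-coding gene on the opposite strand, among them Timp3, Timp4, Mmp1b, Mmp11, Mmp12, Mmp19, Mmp24, Mmp28, Adamts7, Adamts9 and Loxl3. Syn1 had a mean normalized count of 8.12 in 3-week males and 3.61 at 3 months in the authors' deposited tables, against 213.9 and 166.7 for Timp1. Syn3 was lower in 3-week males, at -1.02 ± 0.18 (adjusted p = 7.27e-07) in the authors' deposited table, while Timp3 was not called there, and at 3 months Syn3 had -1.56 ± 0.48 without a p.

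Per kilobase of annotated exon, Timp3 stood far above the other genes. In the authors' deposited table of 3-week males its mean normalized count per kilobase was 6677, followed by Timp2 at 2540, Mmp2 at 1022, Adamts1 at 1001, Lox at 730.2 and Mmp14 at 705.4. These means include both genotypes and are no measure of either.

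Of the gelatinases, which cut denatured collagen and basement membrane collagen, Mmp2 and Mmp9 went opposite ways at 3 weeks. Mmp2, mostly a product of fibroblasts, was higher in knockout in the authors' deposited tables by 1.85 ± 0.24 in 3-week males (adjusted p = 4.71e-12), 1.77 ± 0.13 in 3-week females (adjusted p = 1.54e-37) and 3.80 ± 0.17 in 3-month males (adjusted p = 2.5e-113). Mmp9 was lower in 3-week knockout females, at -1.39 ± 0.32 (adjusted p = 0.000225) and in 3-week knockout males, at -0.99 ± 0.37 (adjusted p = 0.0457) in the authors' deposited tables. At 3 months Mmp9 was higher, by 1.82 ± 0.48 (adjusted p = 0.000442) in the authors' deposited table, at a mean normalized count of 23.0. The call for Mmp9 in 3-week males was lost with scaling to total counts, where its adjusted p was 0.112, and the call at 3 months was lost with centring by abundance, where its adjusted p was 0.0785. The difference between the ages was not tested, since the tables were normalized separately.

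Membrane-type metalloproteinases act at the cell surface. Mmp14, which activates pro-Mmp2 and cuts fibrillar collagen, was higher in all 3 authors' deposited tables, by 1.10 ± 0.19 in 3-week males (adjusted p = 1.98e-07), 0.82 ± 0.22 in 3-week females (adjusted p = 0.00243) and 3.41 ± 0.17 in 3-month males (10.6-fold, adjusted p = 7.28e-84). Mmp16, a close relative with the same reported activation of pro-Mmp2, was higher at 3 weeks by 1.63 ± 0.38 in males (adjusted p = 0.000251) and 1.76 ± 0.30 in females (adjusted p = 1.61e-07) in the authors' deposited tables, and had too low a count at 3 months for a p. Mmp17, a GPI-anchored member, was called only at 3 months, at 1.45 ± 0.30 (adjusted p = 4.69e-06) in the authors' deposited table, a call lost with centring by abundance, where its adjusted p was 0.0638. Mmp15 was at 0.48 ± 0.27 in 3-week males without a call, and in the authors' deposited table of 3-month males it had 3.80 ± 0.42 with the status Outlier. Mmp24 and Mmp25 were called nowhere, with mean normalized counts of 24.5 and 15.0 in the authors' deposited table of 3-week males.

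Mmp2, Mmp14 and Timp2 form the known surface complex that activates Mmp2, in which Timp2 bridges the other proteins. All 3 were higher in the authors' deposited tables of 3-week and of 3-month males. In 3-week females Mmp2 and Mmp14 were higher and Timp2 was not called.

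Along the chromosome 9 run the changes differed between neighbours. Mmp7, matrilysin, which is made by injured tubule epithelium and cuts many surface and matrix proteins, was higher at 3 weeks by 2.80 ± 0.44 in males (6.97-fold, adjusted p = 7.24e-09) and 1.62 ± 0.42 in females (adjusted p = 0.00129) in the authors' deposited tables. At 3 months Mmp7 had 5.85 ± 0.73, the highest value of the 56 genes, with the status Outlier and no p in the authors' deposited table. Mmp12, the elastase of macrophages, was higher in 3-week males by 2.50 ± 0.33 (adjusted p = 2.04e-12) in the authors' deposited table. Without a p, Mmp12 had 1.99 ± 0.40 in 3-week females and 3.67 ± 0.50 in 3-month males in the authors' deposited tables. Mmp12 shares 157 exon bases with Mmp1b on the opposite strand, and Mmp1b was listed at 0.

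Mmp3, stromelysin 1, which cuts proteoglycans and activates other Mmp precursors, was near 0 at 3 weeks and high at 3 months. Its log2 fold change was -0.04 ± 0.34 in 3-week males and -0.04 ± 0.41 in 3-week females, against 4.41 ± 0.60 (21.3-fold, adjusted p = 2.22e-12) in 3-month males in the authors' deposited tables, and the difference was not tested. Mmp13, the main collagenase of the mouse, was called in none of the tables, with -0.87 ± 0.41 without a p in 3-week males, 0.13 ± 0.41 in 3-week females and -0.59 ± 0.37 (adjusted p = 0.165) in 3-month males in the authors' deposited tables. With centring by abundance Mmp13 was lower at 3 months, at -1.45 with an adjusted p of 0.000335. Of the 4 windows printed above, all of which hold the AP-1 and TATAAA letters, Mmp7 and Mmp12 were called higher in 3-week males, Mmp3 was called only at 3 months and Mmp13 was never called.

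**Figure D2:**
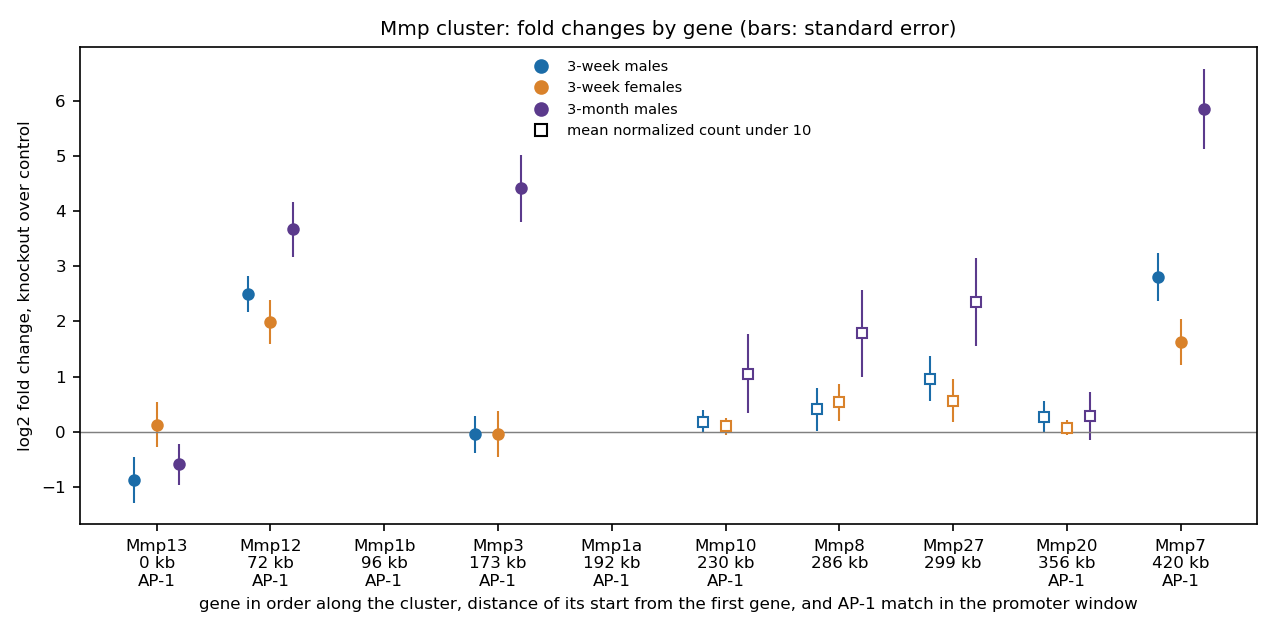
Log2 fold change of knockout over control for the 10 Mmp genes of the chromosome 9 run, in their order along the chromosome, with the distance of each start from that of Mmp13 in kb and a mark for an AP-1 match. Points are the 3 comparisons, bars are the authors' SE and open squares are genes with a mean normalized count under 10; Mmp1a and Mmp1b have no value, Mmp7 reaches 5.85 at 3 months and Mmp13 is at most 0.13.

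The remaining Mmp genes were mostly called at 3 months. Mmp11, stromelysin 3 of stromal cells, was higher there by 2.29 ± 0.27 (adjusted p = 3.56e-16) and Mmp23 by 2.13 ± 0.29 (adjusted p = 2.87e-12) in the authors' deposited table, with no call at 3 weeks. Mmp19 was higher in 3-week males by 1.44 ± 0.33 (adjusted p = 0.000239) in the authors' deposited table, and had 4.01 ± 0.57 without a p at 3 months. Mmp28, epilysin, an enzyme of epithelia, was lower in 3-week females, at -0.70 ± 0.25 (adjusted p = 0.0337) and higher in 3-month males by 1.72 ± 0.45 (adjusted p = 0.000379) in the authors' deposited tables. Mmp28 was lost from the female calls with scaling to total counts, where its adjusted p was 0.0962, and the opposite calls come from kidneys that differ in sex as well as age.

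**Figure D3:**
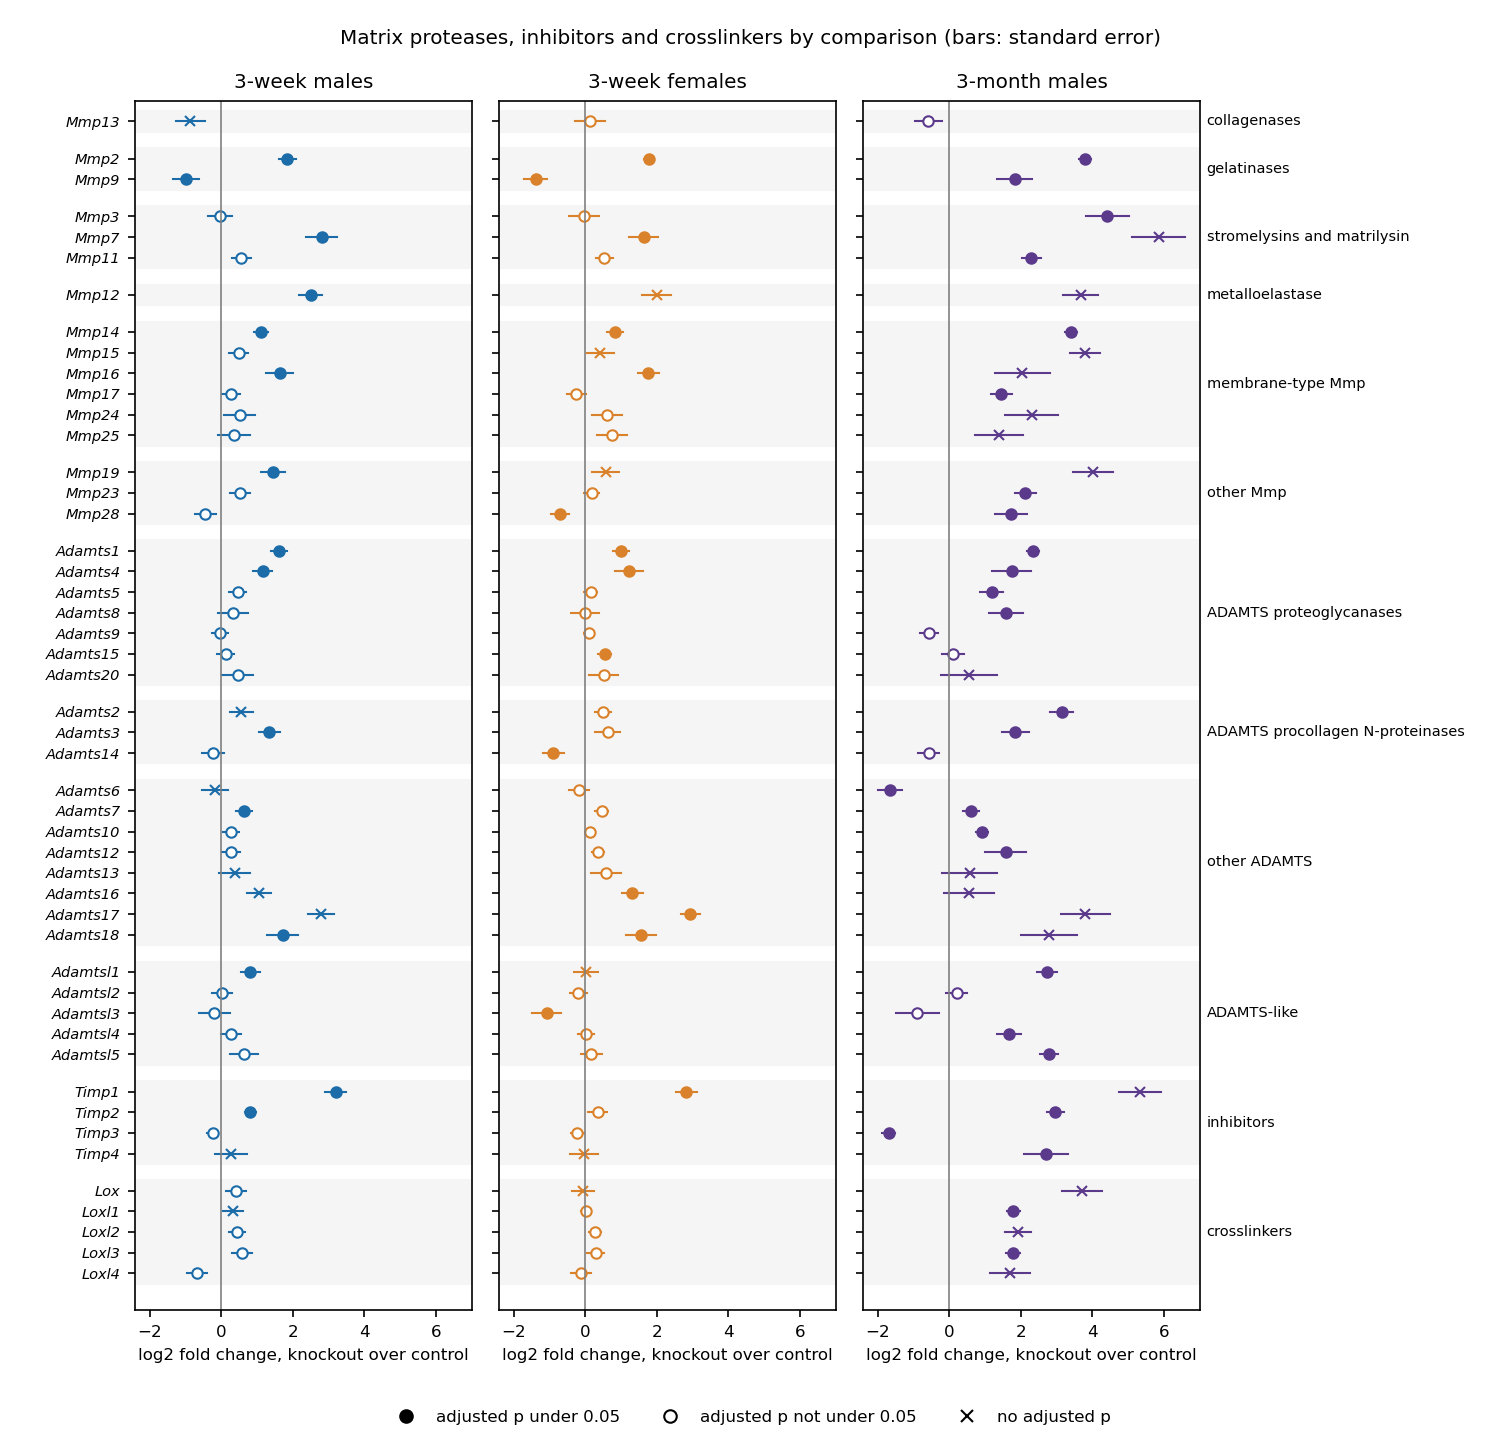
Log2 fold change of knockout over control on 1 common scale for the 48 members with a mean normalized count of at least 10 in 1 table or more, ordered by role, in 3-week males, 3-week females and 3-month males. Bars are the authors' SE, filled circles have an adjusted p under 0.05, open circles do not and crosses have no adjusted p; values at 3 months reach 5.85 for Mmp7 and 5.32 for Timp1, while Timp3 is at -1.69 and Adamts6 at -1.66 there.

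ADAMTS proteoglycanases cut aggrecan and versican, the large proteoglycans of loose matrix. Adamts1 was higher in all 3 authors' deposited tables, by 1.61 ± 0.22 in 3-week males (adjusted p = 1.84e-11), 0.99 ± 0.23 in 3-week females (adjusted p = 0.000192) and 2.33 ± 0.17 in 3-month males (adjusted p = 1.61e-40). Adamts4, aggrecanase 1, was also higher in all 3 authors' deposited tables, by 1.16 ± 0.26 (adjusted p = 0.000144), 1.23 ± 0.39 (adjusted p = 0.0123) and 1.74 ± 0.55 (adjusted p = 0.00372) in the same order. Its call at 3 months was lost with centring by abundance, where its adjusted p was 0.15. Adamts5 and Adamts8 were called only at 3 months, by 1.19 ± 0.32 (adjusted p = 0.000505) and 1.58 ± 0.47 (adjusted p = 0.00197) in the authors' deposited table. With centring by abundance Adamts8 was at 0.65 and no longer called (adjusted p = 0.239). Adamts15 was called only in females, by 0.54 ± 0.19 (adjusted p = 0.0251) in the authors' deposited table, and with scaling to total counts it was also called higher at 3 months (0.68, adjusted p = 0.0491). Adamts9, at -0.57 ± 0.26 in 3-month males in the authors' deposited table, had an adjusted p of 0.0504. It turned sign with scaling to total counts, and it was called lower with centring on the median (adjusted p = 0.0456) and by abundance (adjusted p = 0.0208). Adamts20 was called nowhere.

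The procollagen N-proteinases remove the amino-terminal propeptide so that collagen fibrils can form. Adamts2, the main enzyme of this kind, was higher in 3-month males by 3.14 ± 0.32 (8.79-fold, adjusted p = 2.67e-21) in the authors' deposited table. Adamts3 was higher in males at both ages, by 1.33 ± 0.29 at 3 weeks (adjusted p = 8.31e-05) and 1.84 ± 0.39 at 3 months (adjusted p = 6.62e-06) in the authors' deposited tables, with 0.62 ± 0.35 and no call in females. Adamts14 was lower in 3-week females, at -0.89 ± 0.30 (adjusted p = 0.0183) in the authors' deposited table, a call that scaling to total counts took to an adjusted p of 0.051. At 3 months Adamts14 had -0.58 ± 0.30 in the authors' deposited table and was not called, while with centring by abundance it was called lower, at -1.41 (adjusted p = 1.52e-05).

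Among the other ADAMTS genes, Adamts17, an enzyme linked to fibrillin microfibrils, had the largest change in 3-week females. It was higher there by 2.94 ± 0.26 (7.66-fold, adjusted p = 3.81e-26) in the authors' deposited table. Males of the same age had 2.79 ± 0.36 for Adamts17 in the authors' deposited table, with the status Outlier and no p, and at 3 months its count was too low for a p. Adamts16 was higher in 3-week females by 1.31 ± 0.29 (adjusted p = 0.000121) in the authors' deposited table, and had 1.05 ± 0.35 without a p in 3-week males. Adamts18 was higher at 3 weeks by 1.71 ± 0.44 in males (adjusted p = 0.0013) and 1.56 ± 0.42 in females (adjusted p = 0.00247) in the authors' deposited tables, at mean normalized counts of 18.9 and 13.1. Adamts7 was higher in males, by 0.64 ± 0.23 at 3 weeks (adjusted p = 0.031) and 0.61 ± 0.22 at 3 months (adjusted p = 0.0116) in the authors' deposited tables, and the call at 3 months was lost with centring by abundance (adjusted p = 0.51). Adamts10 and Adamts12 were called only at 3 months, by 0.91 ± 0.18 (adjusted p = 1.2e-06) and 1.57 ± 0.57 (adjusted p = 0.0117) in the authors' deposited table. With centring by abundance Adamts12 was at 0.71 and no longer called (adjusted p = 0.291). Adamts6 was lower in 3-month knockout males, at -1.66 ± 0.33 (adjusted p = 2.48e-06) in the authors' deposited table, and with Timp3 it was the other gene of the 56 called lower there. Adamts13, the protease of von Willebrand factor, had mean normalized counts of 12.0 or less.

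ADAMTS-like proteins have the ancillary domains of this family without the protease and bind to microfibrils. Adamtsl1 was higher in 3-week males by 0.81 ± 0.28 (adjusted p = 0.0235) and in 3-month males by 2.73 ± 0.28 (adjusted p = 3.95e-21) in the authors' deposited tables. Adamtsl4 and Adamtsl5 were higher at 3 months, by 1.66 ± 0.34 (adjusted p = 5.34e-06) and 2.79 ± 0.26 (adjusted p = 8.5e-26) in the authors' deposited table. Adamtsl3 was lower in 3-week females, at -1.08 ± 0.40 (adjusted p = 0.0382) in the authors' deposited table, at a mean normalized count of 24.9, and with scaling to total counts its adjusted p was 0.0707. At 3 months Adamtsl3 had -0.89 ± 0.61 without a call in the authors' deposited table, and with centring by abundance -1.75 (adjusted p = 0.00875). Adamtsl2 was called in none of the authors' deposited tables, with values from -0.20 to 0.20. With scaling to total counts it was called higher at 3 months, at 0.78 (adjusted p = 0.015).

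In the authors' deposited tables of 3-week males and females 0 of the 4 tested lysyl oxidase genes in each were called by the authors' DESeq2 test. At an unadjusted p under 0.05 there were 1 higher (Loxl3) and 1 lower (Loxl4) in males and 0 in females. The shares of all tested genes called in either direction were 17.3%, 18.8% and 57.5% in 3-week males, 3-week females and 3-month males. At 3 months 2 of 2 tested were higher, and the difference between the ages was not tested. Loxl1, which is tied to elastic fibres, was higher at 3 months by 1.79 ± 0.19 (adjusted p = 1.28e-20) and Loxl3 by 1.77 ± 0.19 (adjusted p = 1.3e-18) in the authors' deposited table. Lox, the main enzyme of collagen crosslinking, had 3.71 ± 0.56, Loxl2, which acts on basement membrane collagen, 1.91 ± 0.37 and Loxl4 1.69 ± 0.56, all 3 without a p in the authors' deposited table of 3-month males. At 3 weeks Lox had 0.41 ± 0.27 in males (adjusted p = 0.354) and Loxl2 0.43 ± 0.23 (adjusted p = 0.203) in the authors' deposited table. With scaling to total counts Loxl2 and Loxl3 were called higher in 3-week males, with adjusted p of 0.0419 and 0.0337. Lox lies on chromosome 18.

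At 3 weeks most of these fold changes had the same sign in females and males. Over the 35 genes tested in both authors' deposited tables the log2 fold changes had a Pearson r of 0.92 and a Spearman rho of 0.88, and 31 had the same sign. Over all 13755 genes tested in both, r was 0.86 and rho 0.77. The points of each axis share their libraries, and a correlation over genes is only a description. Called higher in both sexes were 8 genes: Timp1, Mmp2, Mmp7, Mmp14, Mmp16, Adamts1, Adamts4 and Adamts18. Timp2, Adamts3 and Adamts7, tested in both, were called in males and not in females, and Adamts15, Mmp28, Adamts14 and Adamtsl3 in females and not in males, which was not tested as a difference.

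**Figure D4:**
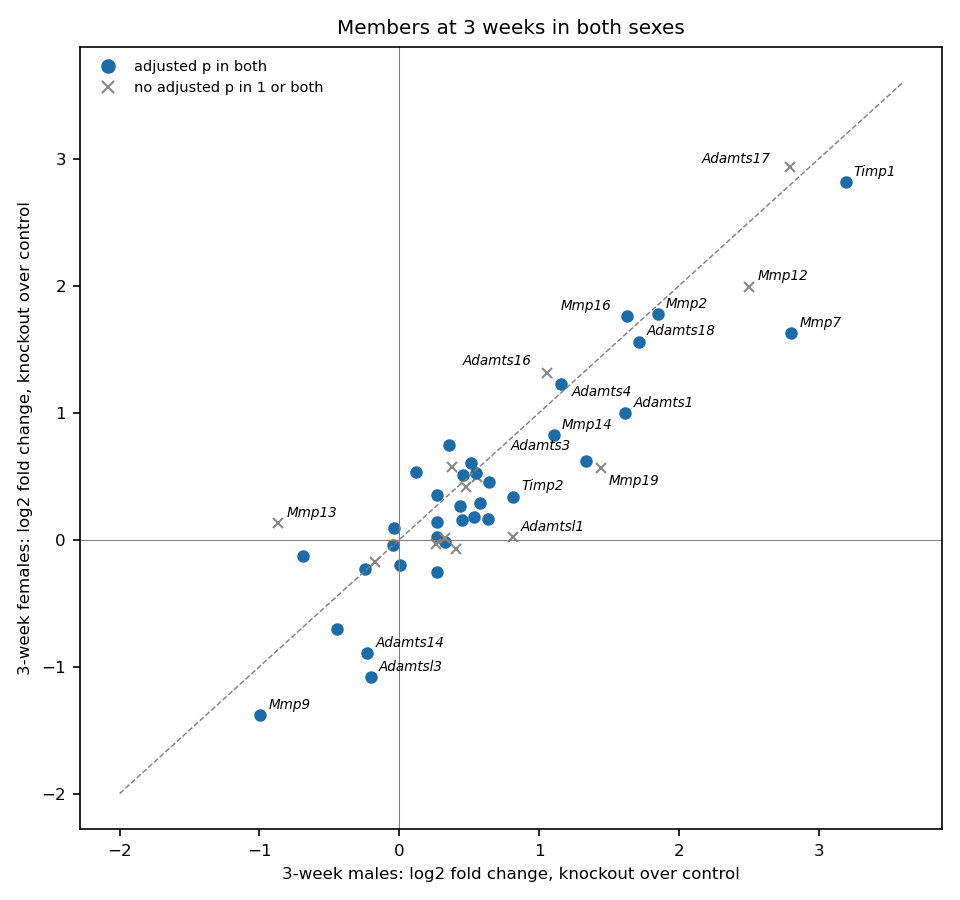
Log2 fold change of knockout over control in 3-week females (vertical) against 3-week males (horizontal) for the members with a mean normalized count of at least 10 in 1 table or more, with the line of equality dashed. Circles have an adjusted p in both tables and crosses do not; Timp1 and Adamts17 lie at the upper right and Mmp9 at the lower left.

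Between 3-week and 3-month males the likeness was weaker. Over 27 genes tested in both authors' deposited tables r was 0.52 and rho 0.59, with 24 of the same sign, where over all 12371 genes r was 0.68 and rho 0.61. The absolute log2 fold change was larger at 3 months in 25 of these 27, with a median of 1.72 at 3 months and 0.45 at 3 weeks, and among all genes it was larger in 9722 of 12371, with medians of 0.54 at 3 months and 0.23 at 3 weeks. Standard errors reach at most 0.44 in the authors' deposited table of 3-week males and 1.10 in that of 3-month males. Such ceilings are seen when fold changes are shrunk, which no source states, so sizes across the tables are not strictly alike. Over the 3 comparisons, 37 of the 56 genes were called in at least 1, 4 were called higher in all 3 (Adamts1, Adamts4, Mmp2 and Mmp14) and 2 had opposite calls (Mmp9 and Mmp28).

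Marker genes of other cell types moved with these results, most of all at 3 months. In the authors' deposited table of 3-month males the urothelial gene Krt5 was at 10.02 ± 0.50 (adjusted p = 3.07e-85), and the uroplakins Upk1a, Upk1b, Upk2 and Upk3a lay between 6.87 and 8.39 with the status Outlier. Fat markers there were at 4.67 ± 0.50 for Plin1 (adjusted p = 7.37e-20) and 3.12 to 4.96 without a p for Adipoq, Cidec and Lep in the authors' deposited table. The macrophage list was called higher in 5 of 5 tested genes at 3 months, from 1.53 to 5.77 with a median of 3.88, and in 4 of 5 in 3-week males and 4 of 5 in 3-week females, with medians of 1.53 and 1.21 in the authors' deposited tables. Of the fibroblast and pericyte list 5 of 5 tested genes were higher at 3 months, 4 of 7 with 1 lower in 3-week females and 1 of 2 in 3-week males in the authors' deposited tables. Smooth muscle genes were higher in 3 of 3, neutrophil genes in 3 of 3 and T and B cell genes in 3 of 4 tested cases at 3 months, and 0 smooth muscle genes had a p at 3 weeks in the authors' deposited tables. At 3 weeks neutrophil genes were called in 0 of 3 in each sex. T and B cell genes were higher in 1 of 5 in males and 1 of 4 in females. At 3 months mean normalized counts of the neutrophil and the T and B cell genes reached only 17.1 and 37.0. They lay in the lowest abundance bin, where 48.1% of all genes were higher. The 5 urothelial genes had no p at 3 weeks and lay between 1.58 and 2.09 in males and between 0.26 and 0.86 in females in the authors' deposited tables.

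Most tubule markers had negative values. Proximal tubule genes were lower in 3 of 3 tested cases in 3-week males, 1 of 2 in 3-week females and 1 of 1 in 3-month males, and Pvalb of the distal convoluted tubule was lower in all 3, from -3.46 to -4.60, in the authors' deposited tables. Podocyte genes were lower in 2 of 3, 0 of 3 and 2 of 2 tested cases in the same order, and endothelial genes in 2 of 4, 4 of 4 and 1 of 2, with 1 higher at 3 months. At an unadjusted p under 0.05, 2 of 3 podocyte genes were lower in 3-week females by the authors' DESeq2 test. Atp6v1g3 of collecting duct intercalated cells was lower at 3 weeks, at -0.96 ± 0.23 in males (adjusted p = 0.000669) and -1.06 ± 0.24 in females (adjusted p = 0.000145) in the authors' deposited tables, and thick ascending limb genes were lower in 2 of 2 in both. Aqp2, the other collecting duct marker, had 0.92 ± 0.32 in 3-week males, 0.46 ± 0.36 in 3-week females and 2.29 ± 0.49 in 3-month males in the authors' deposited tables, in each case without a p. Levels per genotype were not used here. Among the listed markers only the neutrophil gene Mpo was listed at 0, in females. The part of these cell types in the protease, inhibitor and crosslinker values was not tested, and in whole kidney fewer cells of a type and less RNA per cell cannot be told apart. The 9 members of status Outlier at 3 months all had positive values, from 0.54 to 5.85. They share that status with 4 of 5 urothelial, 3 of 4 fat, 2 of 2 thick ascending limb and 2 of 2 collecting duct markers. Also Outlier were 2 of 3 proximal tubule, 2 of 4 endothelial and 3 of 8 fibroblast and pericyte markers. The same held for 1 of 2 distal convoluted tubule and 1 of 3 podocyte markers. Of the macrophage, neutrophil, T and B cell and smooth muscle markers 0 were Outlier. Of the 23416 genes whose name occurs once in the authors' deposited table of 3-month males, 725 were Outlier with a positive value and 790 with a negative one.

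**Figure D5:**
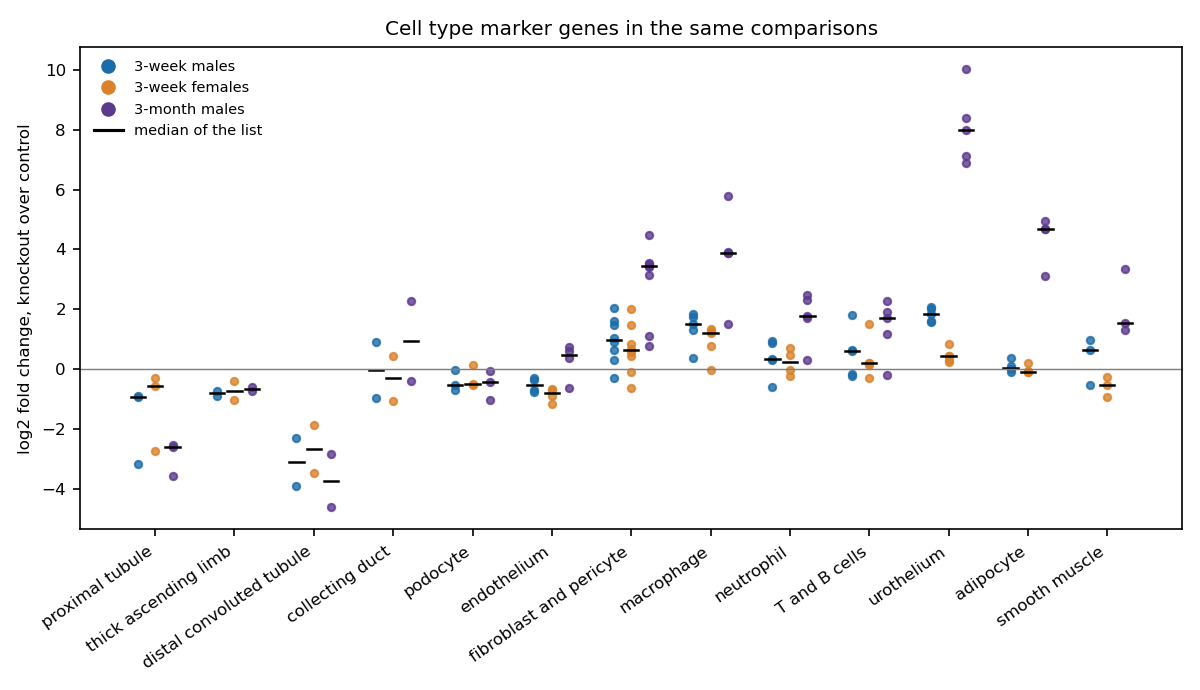
Log2 fold change of knockout over control for marker genes of 13 cell types in the 3 comparisons, 1 point per gene with a fold change, whether or not it has a p, and a bar at the median of each list. Urothelial genes lie between 6.87 and 10.02 and fat genes between 3.12 and 4.96 at 3 months, while distal convoluted tubule genes lie below 0 in all 3 comparisons.

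The wider matrix turnover genes were also called higher more often than lower. Of 58 listed genes, 17 of 49 tested were higher and 2 lower in 3-week males, 19 of 50 and 6 in 3-week females and 26 of 41 and 4 in 3-month males in the authors' deposited tables. The shares of all tested genes called higher were 8.81%, 8.3% and 29.8% in the same order, and called lower 8.52%, 10.5% and 27.8%. Matrix substrates were higher in 6 of 11, 9 of 15 and 8 of 9 tested cases and lower in 0, 2 and 0. The substrate list shares Dcn, Col1a1 and Col3a1 with the fibroblast and pericyte markers, so these lists are not separate observations. Sheddases and their regulators were higher in 5 of 12, 5 of 11 and 8 of 10 and lower in 0, 1 and 2. Procollagen processing genes were higher in 1 of 11, 1 of 11 and 2 of 9 and lower in 0, 2 and 0, with medians of -0.26, -0.14 and -0.04 in the authors' deposited tables. The plasminogen genes were higher in 3 of 7, 1 of 5 and 4 of 6 and lower in 1, 1 and 0. The cathepsins and other proteases were higher in 2 of 8, 3 of 8 and 4 of 7 and lower in 1, 0 and 2. Among the genes called higher in all 3 authors' deposited tables were Serpine2, an inhibitor of plasminogen activators and thrombin, Bmp1, the procollagen C-proteinase, the cathepsins Ctsk and Ctss, Adam19, Thbs2 and the matrix genes Fbn1, Mgp and Spp1. In the authors' deposited tables Serpine2 was at 1.16 ± 0.19 (adjusted p = 2.05e-08) in 3-week males, 1.06 ± 0.13 (adjusted p = 1.58e-14) in 3-week females and 2.99 ± 0.27 (adjusted p = 2.42e-26) in 3-month males. Ctss, a cathepsin of macrophages, was at 1.80 ± 0.21 (adjusted p = 5.4e-15), 1.04 ± 0.27 (adjusted p = 0.00144) and 4.11 ± 0.25 (adjusted p = 1.02e-57) in the same order. Bmp1 was at 0.66 ± 0.25 (adjusted p = 0.0424), 0.34 ± 0.12 (adjusted p = 0.04) and 1.47 ± 0.29 (adjusted p = 1.64e-06) in the authors' deposited tables.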

How the data were processed

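Polyadenylated kidney RNA was made into libraries with a stranded mRNA kit, per the labels' protocols. STAR, HOMER, DESeq2 and the build mm10 are named in the submitters' processing notes, without versions. Per the file headers, the deposited signal is the mean of counts divided by size factors, beside a log2 fold change, its standard error (read here as a score) and p-values, raw and adjusted. The deposited p-values matched a 2-sided normal test of fold change over standard error within 1% for 100% of genes, and the adjusted ones followed Benjamini-Hochberg over genes of the status OK. The summed mean counts, a measure of depth, were, in units of 1e6, 47.6, 33.9 and 18.8 in 3-week males, 3-week females and 3-month males. Depth per library is not known here.

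The members, lists, marker genes and motifs were chosen with earlier results of these data known. Named are members called in at least 1 table, the 2 most abundant of each role, and members without a p whose absolute log2 fold change is at least 1; related genes are those called in all 3 tables, at most 4 per list. Of the symbols, 27 had become dates and match no rule. Libraries are separate littermates per the labels. The p-values are read as measuring the spread between them, but which libraries entered each comparison is not stated. The recomputed alternatives shift, centre or re-threshold the deposited fold changes with their standard errors. Simulated data, drawn with those same standard errors, checked only the recomputed p and its adjustment. Centring on the median and the total-count shift were checked for arithmetic only, and the other alternatives were not checked. Total-count scaling was derived from mean and fold change, with groups taken as equal in size. Coordinates and exon lengths are from GENCODE M21, promoter windows from RefSeq (GRCm38.p6). Python 3.11.15, pandas 2.3.3, numpy 2.4.6, scipy 1.17.1 and matplotlib 3.10.9 were used. A planned search of protein sequences was not run. Some related genes are not reported here.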

Additional observations from a re-analysis of the deposited data

How the results depend on the processing

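Of the members called, 0 called values turned sign under the 6 alternatives run. The stricter adjusted p, the dropped status filter and the minimum fold change leave each fold change unchanged and could not turn a sign. Centring on the median moves values by at most about 0.011, so this count bears mainly on total-count scaling and centring by abundance. Genes called lower in 3-week males were 0 in place of 1 with an adjusted p under 0.01, without the status filter, with scaling to total counts and with a minimum absolute log2 fold change of 1. In 3-week females they were 1, 1 and 2 in place of 4 with an adjusted p under 0.01, scaling to total counts and the minimum fold change. At 3 months members called higher were 38 of 53 in place of 24 of 32 without the status filter, and members called lower were 6 in place of 2 with centring by abundance and 3 with centring on the median. Related genes called higher were 11 in place of 17 in 3-week males with the minimum fold change, and 12 and 6 in place of 19 in 3-week females with an adjusted p under 0.01 and the minimum fold change. Related genes called lower were 1 in place of 2 in 3-week males with the minimum fold change. In 3-week females they were 3, 3 and 1 in place of 6 with total counts, abundance and the minimum fold change. At 3 months they were 2, 1, 1 and 1 in place of 4 with an adjusted p under 0.01, total counts, abundance and the minimum fold change. Values near 0 that were not called turned sign: with total counts Adamts9 (0.14) and Mmp3 (0.13) in 3-week males, Adamts8 (0.13), Loxl4 (0.022) and Mmp3 (0.11) in 3-week females and Adamts9 (0.0091) at 3 months, and with abundance Adamts9 (0.0095) in 3-week males and Adamtsl5 (-0.0375) and Mmp13 (-0.0752) in 3-week females. The cause of these changes was not tested. Leaving out each library in turn was not run, since the tables hold no values per library. No paired analysis was possible because the tables hold comparisons and no library columns. Low counts left 8 of the 56 genes untested in every table.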
